A study of Arabidopsis thaliana with 69 samples.

Results

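Autophagy genes that encode the ATG8 proteins and the enzyme ATG3 were followed during induction of the xylem regulator VND7 in Arabidopsis thaliana. Genes were taken by symbol, those that begin with ATG8 or APG8 and the gene ATG3, and 10 of the 13286 genes with a probe set of their own met this rule. They were APG8A (AT4G21980, also named ATG8A), ATG8B (AT4G04620), ATG8C (AT1G62040), ATG8D (AT2G05630), ATG8E (AT2G45170), ATG8F (AT4G16520), ATG8G (AT3G60640), ATG8H (AT3G06420), APG8H (AT3G15580, also named ATG8I) and ATG3 (AT5G61500). APG8H and ATG8H are different genes in spite of their symbols. Each of the 10 had 1 probe set that named no other gene, none was at the floor of the values, and all entered every comparison. Cross-hybridisation between members of the ATG8 family was not tested.

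In autophagy, parts of the cytoplasm are enclosed in a double membrane and delivered to the vacuole for breakdown. ATG8 is a small ubiquitin-like protein that is attached to the lipid phosphatidylethanolamine of this membrane, where it helps the membrane grow and binds receptors that carry cargo. The protease ATG4 first trims ATG8, the E1-like enzyme ATG7 activates it, and ATG3, the E2-like enzyme, passes it to the lipid. ATG8H and APG8H belong to a branch of the Arabidopsis family whose proteins end in the glycine that is joined to the lipid, so that they need no trimming, whereas the other ATG8 genes encode precursors. Xylem vessel cells empty themselves and die as they mature, and autophagy has been studied as one of the processes active in such cells.

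The values were log2 signals from 69 Affymetrix ATH1 arrays of seedlings of ecotype Col-0, in 23 groups of 3. All groups shared growth in liquid medium with sucrose for 6 days in the dark and a label of hypocotyl as tissue, and whole cultures were harvested. The VND7 line carried VND7-VP16-GR, a fusion of VND7 with a viral activation domain and a hormone-binding domain, under the broadly active 35S promoter, and 10 µM dexamethasone (DEX) moves such a protein into the nucleus. It was given DEX or the solvent DMSO, with 3 arrays each at 1, 3, 6, 9, 12, 24, 30 and 48 h and 3 more DMSO arrays at 0 h. The line with the empty vector expressed the VP16-GR part alone and was given DEX or DMSO for 9, 12 and 24 h. The labels call the 3 arrays of a group biological replicates, and do not say whether the lines descend from 1 or several transformants. The transgene could not be read, since VND7 is named by none of the probe sets used here. In RNA of whole cultures, fewer cells of a type and less RNA per cell cannot be told apart.

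Some arrays of the VND7 line resembled the other treatment more than their own. By their correlation with arrays of each label or by their 3 nearest arrays, 10 were out of place. Under the DMSO label these were replicate 3 of 0 h, replicate 2 of both 1 h and 6 h, and replicate 1 of 24 h. Under the DEX label they were replicates 2 and 3 at 1 h, replicate 2 at 24 h and the whole group of 48 h. The mean signal of 9 measured genes from a list of 25 xylem and secondary wall markers was 6.14 to 6.95 in the remaining 23 DMSO arrays and 9.86 to 12.8 in the remaining 18 DEX arrays of that line. It was 8.68 to 11.4 in the 4 DMSO arrays out of place, 6.47 to 8.31 in the 6 DEX arrays out of place, and 6.49 to 7.06 in the 18 empty vector arrays. Within the DEX label, DEX 3 h replicate 2 and DEX 12 h replicates 1 and 3 had a lower mean of these markers (9.94, 10.05 and 9.86) than the other arrays of their groups (12.60 to 12.74), and DEX 1 h replicate 1 lay nearest to DEX 30 h replicate 2. Other DEX arrays also correlated best with an array of another time, such as DEX 3 h replicate 1 with DEX 12 h replicate 2, DEX 3 h replicate 2 with DEX 12 h replicate 1, and DEX 9 h replicate 1 with DEX 3 h replicate 1. Whether labels of treatment or time were exchanged was not tested, so a value at a given time holds for the arrays that carry that label. Each comparison uses all arrays first, and where it matters a second value leaves out the 10. Since the choice of the 10 rests on these same signals and labels, dropping them adds calls by construction.

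**Figure D1:**
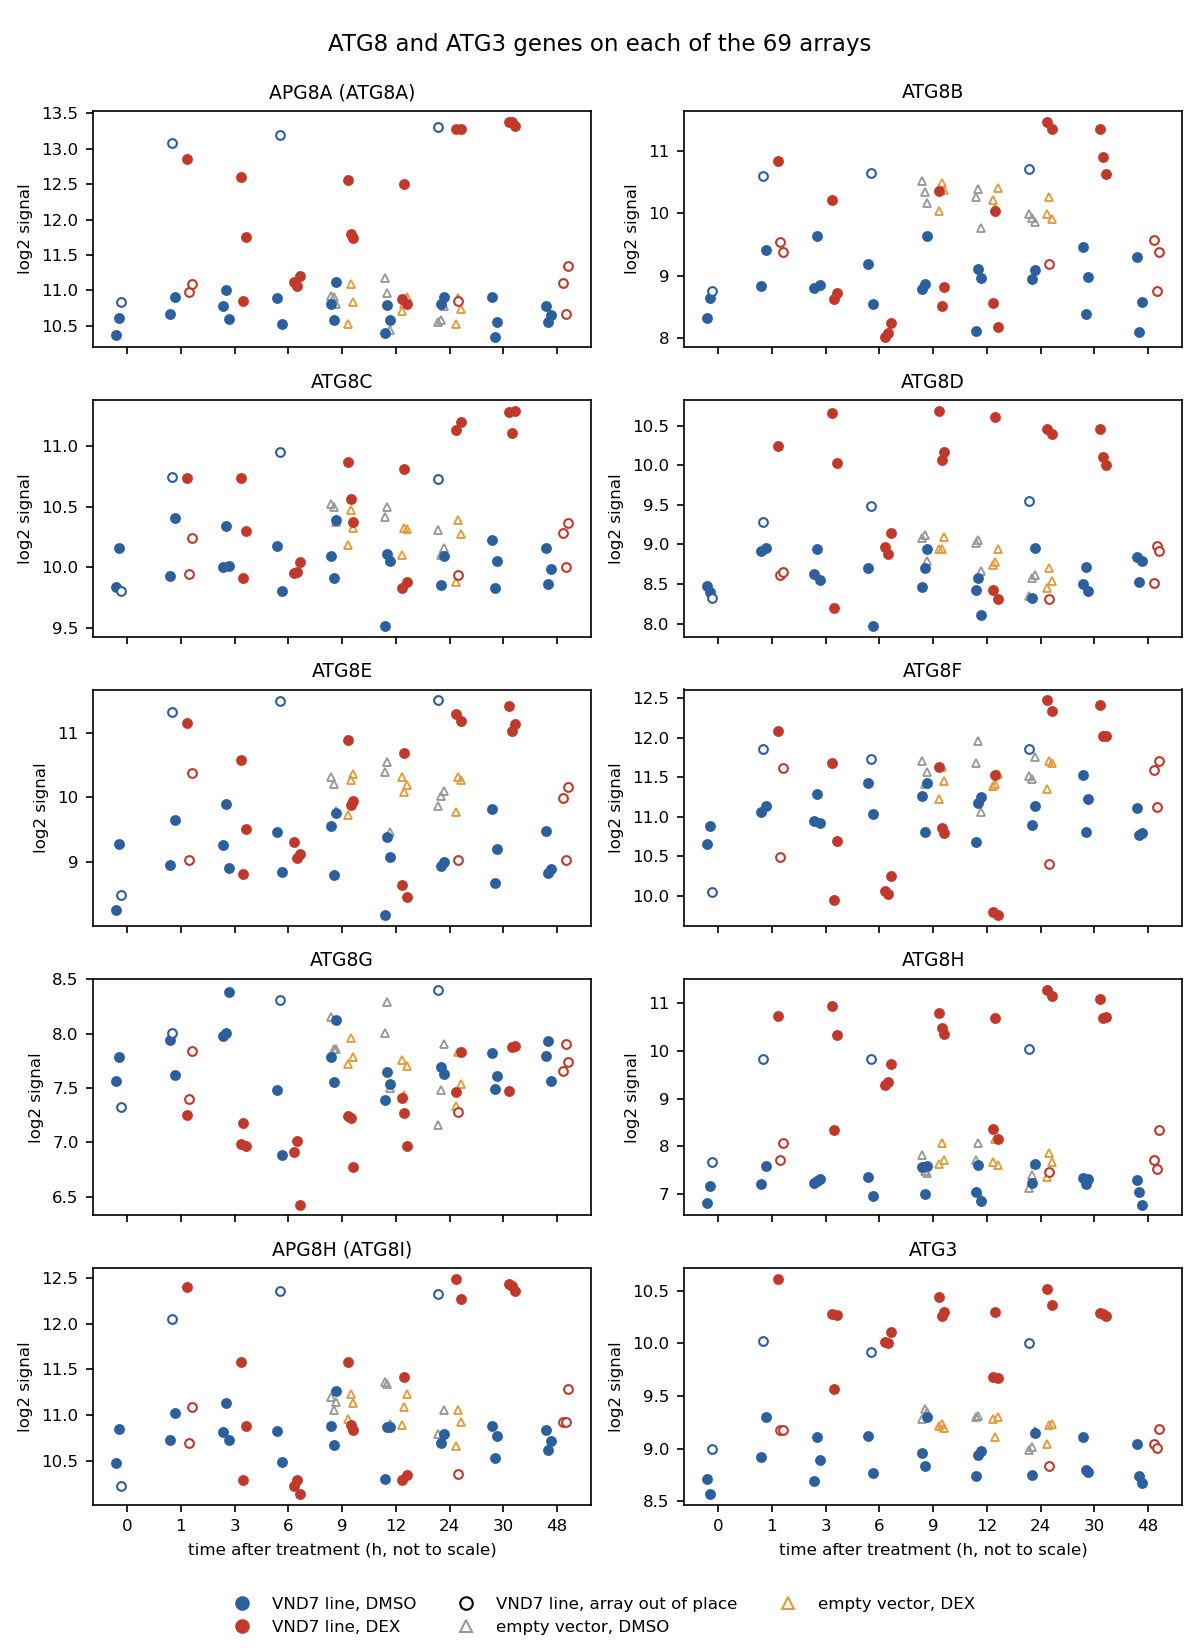
Log2 signal of the 10 genes on every array (y axis) by time in hours (x axis, evenly spaced), for DMSO (blue) and DEX (red) arrays of the VND7 line, those out of place with open circles, and for empty vector arrays (triangles). ATG8H and ATG3 show filled red points above the filled blue ones at each time from 1 to 30 h, APG8A reads 13.33 to 13.38 at DEX 30 h, and ATG8G is lowest at DEX 6 h.

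ATG8H, one of the ATG8 genes whose product needs no trimming, rose most in the VND7 line. At 3 h its log2 signal read 10.95, 8.34 and 10.34 on the DEX arrays and 7.24, 7.29 and 7.32 on the DMSO arrays. The groups did not overlap, and the lowest DEX array was replicate 2, the one with the lower xylem markers. The difference was 2.60 ± 0.74 (SE), or 6.04-fold (limma adjusted p = 0.00401). At 9 h the DEX arrays read 10.79, 10.47 and 10.35 against 7.57, 7.00 and 7.58, a difference of 3.15 ± 0.74 (limma adjusted p = 0.000504). Its group mean was highest at 30 h, with 11.09, 10.70 and 10.71 on DEX against 7.33, 7.21 and 7.32 on DMSO. This was a difference of 3.54 ± 0.74, or 11.7-fold (limma adjusted p = 0.000376). DEX 24 h replicates 1 and 3 read higher, at 11.28 and 11.15, while replicate 2, out of place, read 7.46. Without the arrays out of place the difference was 3.78 at 24 h and 3.54 at 30 h.

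In a fit of the compared groups alone the call of ATG8H at 3 h was lost at the same difference (limma adjusted p = 0.0673). The call at 12 h was lost too, at 1.89 (limma adjusted p = 0.179), and those at 9 and 30 h were kept.

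At 6, 12 and 24 h the arrays of ATG8H were more mixed. The DEX arrays at 6 h read 9.28, 9.35 and 9.73, close together, whereas the DMSO arrays read 7.37, 9.82 and 6.96. The DMSO array above the DEX arrays was replicate 2, out of place, and the difference of 1.41 ± 0.74 was not called (limma adjusted p = 0.147). Without that array it was 2.29 and called (limma adjusted p = 0.0176). At 12 h the DEX arrays read 8.36, 10.68 and 8.15 against 7.05, 7.61 and 6.86, and the difference of 1.89 ± 0.74 was called (limma adjusted p = 0.0426). The call at 12 h was lost on leaving out DMSO replicate 1 (1.83), DMSO replicate 2 (2.11), DMSO replicate 3 (1.74) or DEX replicate 2 (1.08). At 24 h the arrays read 11.28, 7.46 and 11.15 on DEX and 10.04, 7.24 and 7.63 on DMSO. DEX replicate 2 and DMSO replicates 1 and 3 lay in the range of the other label. The difference of 1.66 was not called (limma adjusted p = 0.165), but it was called without DMSO replicate 1 (2.53) or without DEX replicate 2 (2.91).

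Over all 23 groups the order of ATG8H began with DEX 30 h at 10.83 ± 0.22 (SD, n = 3), DEX 9 h at 10.54 ± 0.23, DEX 24 h at 9.96 ± 2.17, DEX 3 h at 9.88 ± 1.36, DEX 6 h at 9.45 ± 0.24, DEX 12 h at 9.07 ± 1.40 and DEX 1 h at 8.84 ± 1.65. Neighbours in this order differed by less than their spread, except that DEX 30 h and DEX 9 h differed by slightly more than either SD. The 16 further groups had means of 7.04 to 8.31, with the 3 DMSO groups of 24, 1 and 6 h that hold an array out of place at the top, and all 6 empty vector groups between 7.38 and 7.81. Without the arrays out of place, 18 DEX arrays of the line read 8.15 to 11.28 and 23 DMSO arrays 6.78 to 7.63, with no overlap. The arrays left out were chosen on these same signals and labels, which favours such a separation. The share of all probe sets separated in this way was not computed.

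ATG3, which encodes the enzyme that joins ATG8 to its lipid, rose at 3, 9, 12 and 30 h. Its log2 signal at 3 h read 10.28, 9.57 and 10.27 on DEX against 8.70, 9.11 and 8.89 on DMSO, a difference of 1.14 ± 0.30 (SE), or 2.21-fold (limma adjusted p = 0.00205). At 9 h it read 10.44, 10.26 and 10.30 against 8.96, 8.83 and 9.30, a difference of 1.31 (limma adjusted p = 0.000432). The 12 h arrays read 9.68, 10.30 and 9.68 against 8.74, 8.94 and 8.97. In each of these 3 times the DEX arrays lay wholly above the DMSO arrays.

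The rise of ATG3 at 12 h, 1.00 ± 0.30, stood just past the fold minimum (limma adjusted p = 0.00803) and was lost without DMSO replicate 1 (0.93) or DEX replicate 2 (0.80). At 30 h its DEX arrays were nearly identical, 10.29, 10.28 and 10.26, against 9.11, 8.80 and 8.77, and the difference was 1.38 ± 0.30, or 2.61-fold (limma adjusted p = 0.000541). At 6 h the DEX arrays read 10.02, 10.00 and 10.11 against 9.13, 9.92 and 8.77. This difference of 0.77 passed the p threshold but not the fold minimum (limma adjusted p = 0.0422), and it was 1.10 and called without DMSO replicate 2. Group means of ATG3 were highest at DEX 9 h (10.34 ± 0.10, SD, n = 3) and DEX 30 h (10.28 ± 0.02), which differed by less than the larger SD, and lowest in the VND7 line at DMSO 0 h (8.76 ± 0.22). As with ATG8H, the arrays of the line did not overlap once the 10 were left out, with DEX at 9.57 to 10.61 and DMSO at 8.57 to 9.30. Here too the choice of the arrays left out favours such a separation.

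APG8A, an ATG8 precursor gene, reached its highest signal at 24 and 30 h. At 30 h it read 13.38, 13.37 and 13.33 on DEX and 10.90, 10.35 and 10.55 on DMSO. The difference was 2.76 ± 0.57 (SE), or 6.79-fold (limma adjusted p = 0.000349). At 9 h it read 12.56, 11.79 and 11.74 against 10.80, 10.58 and 11.12, without overlap, but the difference of 1.20 ± 0.57 missed the threshold (limma adjusted p = 0.089). DEX arrays at 3 h were scattered, at 12.60, 10.85 and 11.75, and those of 12 h at 10.88, 12.50 and 10.80, of which the low ones had the lower xylem markers. At 6 h the DEX arrays read 11.11, 11.07 and 11.21, near the DMSO arrays of 10.90 and 10.52, while DMSO replicate 2 read 13.20.

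The DMSO arrays out of place shared that high level of APG8A. Those of 1, 6 and 24 h read 13.08, 13.20 and 13.31. The first and second lay just below the DEX arrays of 24 and 30 h and the last among them. Those DEX arrays read 13.28, 13.28, 13.38, 13.37 and 13.33, apart from the out-of-place DEX 24 h replicate 2 at 10.84. The same DMSO arrays read 11.32, 11.49 and 11.51 for ATG8E and 9.83, 9.82 and 10.04 for ATG8H. For ATG8H these values were below every DEX array of 30 h, and for ATG8D the 3 arrays read 9.28, 9.49 and 9.55, below the 10.46, 10.10 and 10.00 of DEX 30 h. DMSO 0 h replicate 3 read 10.83 for APG8A and 7.68 for ATG8H, near the other DMSO arrays. The DEX arrays of 48 h read 11.10, 10.67 and 11.34 for APG8A against 10.77, 10.55 and 10.65 on DMSO, and no member was called at that time or at 1 h. At those times 0.0044% and 0.0132% of all probe sets were called in either direction, and 0 members had an unadjusted p under 0.05.

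At 30 h most of the family rose together. Of the 10 members 8 were called up and 0 down, where 12.7% of all probe sets were called up and 15.2% down, and the median difference of the members was 1.66 on the log2 scale beside 0 for all probe sets. Besides APG8A, ATG8H and ATG3, ATG8B rose by 2.01 ± 0.53 (SE), from 8.94 ± 0.53 to 10.95 ± 0.36 (SD, n = 3, limma adjusted p = 0.00251). ATG8E read 11.42, 11.03 and 11.13 against 9.82, 8.67 and 9.20 and rose by 1.96 (limma adjusted p = 0.0105). This call was lost without DMSO replicate 2, at 1.68 (limma adjusted p = 0.0591). APG8H, the other isoform that needs no trimming, read 12.44, 12.41 and 12.36 against 10.88, 10.53 and 10.78 and rose by 1.68 ± 0.42, or 3.19-fold (limma adjusted p = 0.00152).

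ATG8D and ATG8C completed the genes called at 30 h. ATG8D read 10.46, 10.10 and 10.00 against 8.50, 8.71 and 8.41 and rose by 1.65 (limma adjusted p = 0.00365). ATG8C read 11.28, 11.11 and 11.29 against 10.22, 9.83 and 10.05 and rose by 1.19 ± 0.26 (limma adjusted p = 0.000575). ATG8F, at 12.41, 12.01 and 12.02 against 11.52, 10.80 and 11.22, differed by 0.96 and was not called (limma adjusted p = 0.0516), although its groups did not overlap. It was called without DMSO replicate 1, at 1.13 (limma adjusted p = 0.0451). The exception was ATG8G, at 7.47, 7.88 and 7.89 against 7.83, 7.49 and 7.62, with a difference of 0.10 and overlapping groups. In 9 of the 10 members the DEX arrays lay wholly above the DMSO arrays, as did 22.8% of all probe sets. None of the 6 arrays was out of place, and the same 8 genes were called, beside 13.7% of all probe sets called up, when the 10 arrays elsewhere were left out.

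**Figure D2:**
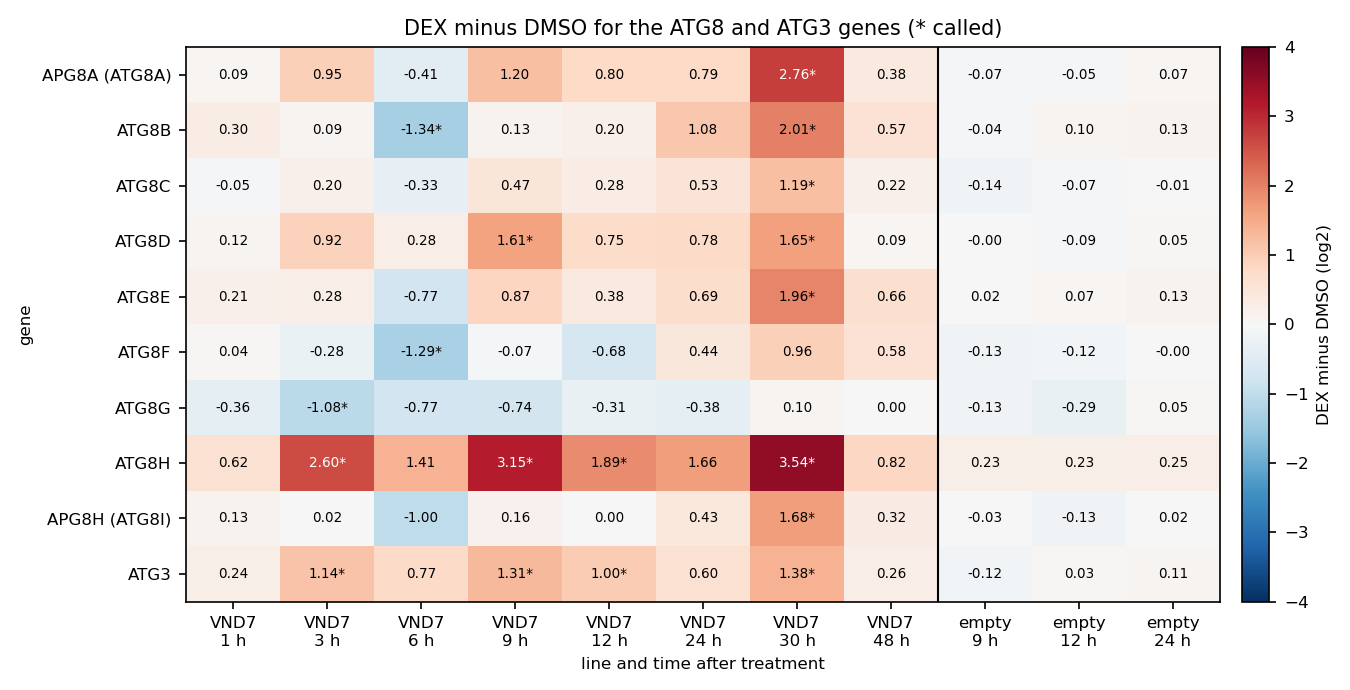
Difference between DEX and DMSO on the log2 scale for each of the 10 genes (rows) at each time in the VND7 line and the empty vector line (columns), with the value printed in each cell, red for higher on DEX, blue for lower, and an asterisk for a call at an adjusted p under 0.05 and a difference of at least 1. The column of 30 h in the VND7 line holds 8 asterisks, those of 1, 24 and 48 h and the empty vector line none. Centring each array on its median instead removes the 3 blue asterisks at 3 and 6 h. Quantile normalization removes that of ATG8G at 3 h and keeps those at 6 h.

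Early in induction few members were called. At 3 h ATG8H and ATG3 were called up and ATG8G down, where 10.4% of all probe sets were called up and 17.4% down. ATG8G, another ATG8 precursor gene, read 6.99, 7.18 and 6.97 on DEX against 7.98, 8.01 and 8.39 on DMSO, without overlap. Its difference was -1.08 ± 0.23 (SE), or 2.12-fold lower (limma adjusted p = 0.000217), and without DMSO replicate 3 it was -0.95 and no longer past the fold minimum. It was -0.50 with each array centred on its median and -0.79 with quantile normalization, and neither was called. ATG8D read 10.66, 8.20 and 10.03 against 8.63, 8.95 and 8.56 at this time and was not called (0.92, limma adjusted p = 0.101). Without DEX replicate 2, the low array, its difference was 1.63 and was called. The remaining members differed by -0.28 to 0.95 at 3 h.

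At 6 h ATG8B and ATG8F were called down and 0 members up, where 12.7% of all probe sets were called down and 9.85% up. These calls depended on the normalization. With each array centred on its median, ATG3 (1.21) and ATG8H (1.84) were called up, and ATG8B (-0.91) and ATG8F (-0.85) stayed negative but were not called. Quantile normalization kept ATG8B (-1.31) and ATG8F (-1.41) called down, added APG8H (-1.11) and called 0 members up. ATG8F read 10.05, 10.02 and 10.25 on DEX, the lowest of its groups, against 11.43, 11.73 and 11.03 on DMSO. The difference was -1.29 ± 0.40 (SE), or 2.44-fold lower (limma adjusted p = 0.00966), and it was -1.12 and still called without the array out of place. ATG8B read 8.02, 8.09 and 8.23 against 9.19, 10.64 and 8.55, a difference of -1.34 (limma adjusted p = 0.0435).

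The fall of ATG8B at 6 h did not hold on leaving out DMSO replicate 1 (-1.48), DMSO replicate 2 (-0.75), or DEX replicate 1 (-1.30), 2 (-1.33) or 3 (-1.40). APG8H read 10.22, 10.29 and 10.14 against 10.82, 12.36 and 10.49 and differed by -1.004, just short of the p threshold (limma adjusted p = 0.0555). It was called without DMSO replicate 1 (-1.20) or 3 (-1.37). ATG8G at 6 h, with 6.91, 7.01 and 6.43 against 7.48, 8.31 and 6.88, differed by -0.77 (limma adjusted p = 0.00772) and was called without DMSO replicate 3 (-1.11). For ATG8B, ATG8F, ATG8G and APG8H, DEX 6 h had the lowest mean of the 23 groups.

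At 9 h ATG8D joined ATG8H and ATG3 among the genes called up, 3 in all, with 0 down, where 11.8% of all probe sets were called up and 17.7% down. ATG8D read 10.69, 10.07 and 10.17 on DEX against 8.46, 8.70 and 8.94 on DMSO, a rise of 1.61 ± 0.45 (SE), or 3.05-fold (limma adjusted p = 0.00319). ATG8G read 7.25, 7.22 and 6.77 against 7.79, 7.56 and 8.12 and differed by -0.74, past the p threshold but short of the fold minimum (limma adjusted p = 0.00802). ATG8E, at 10.89, 9.88 and 9.95 against 9.55, 8.79 and 9.76, was not called (0.87, limma adjusted p = 0.296). Of the members 5 lay wholly above and 1 wholly below their DMSO arrays, against 22.2% and 28.5% of all probe sets. No array of 9 h was out of place, and leaving out the 10 arrays elsewhere added APG8A to the calls, beside 13% of all probe sets called up.

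At 12 h ATG8H and ATG3 were called up and 0 members down, beside 8.94% and 13.2% of all probe sets. ATG8F read 9.79, 11.52 and 9.75 on DEX against 10.68, 11.17 and 11.24 on DMSO, and its difference of -0.68 was not called (limma adjusted p = 0.205). Without DEX replicate 2, the array with the higher xylem markers, ATG8F differed by -1.26 and was called down. ATG8D read 8.43, 10.60 and 8.31 against 8.42, 8.57 and 8.11. Thus replicate 2 stood alone for both genes.

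At 24 h 0 members were called, beside 2.89% of all probe sets called up and 1.46% called down, and 2 members had an unadjusted p under 0.05. ATG8B read 11.47, 9.19 and 11.35 on DEX against 10.71, 8.94 and 9.09 on DMSO, a difference of 1.08 (limma adjusted p = 0.21). Without the out-of-place DMSO replicate 1, 3 members were called up: APG8A (1.61), ATG8B (1.65) and ATG8H (2.53), beside 6.1% of all probe sets in that fit. Without the out-of-place DEX replicate 2, 7 were called up: ATG3 (1.14), APG8A (1.60), ATG8B (1.82), ATG8D (1.49), ATG8F (1.11), ATG8H (2.91) and APG8H (1.11), beside 7.61% of all probe sets. Without all 10 arrays, 9 members were called up, the exception being ATG8G at -0.01, where 13.3% of all probe sets were called up. Their differences then ran from 1.19 for ATG8C to 3.78 for ATG8H.

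Averaged over the 6 effects from 3 to 30 h, ATG8H rose by 2.37 ± 0.30 (SE, limma adjusted p = 2.43e-09), ATG3 by 1.03 ± 0.12 (limma adjusted p = 4.65e-10) and APG8A by 1.01 ± 0.23 (limma adjusted p = 0.000187), where 9.83% of all probe sets were called up. ATG3 and APG8A were just past the fold minimum. ATG3 kept the call in 32 of 36 fits that left out 1 array, and fell to 0.98 to 1.00 without replicate 3 of DMSO 6 h, replicate 2 of DMSO 24 h, or replicate 1 or 3 of DEX 24 h. APG8A kept it in 23 of 36. It was 0.92 to 1.00 without DMSO 3 h replicate 3, 6 h replicate 1 or 3, 9 h replicate 2, 12 h replicate 1, 24 h replicate 2 or 3, or 30 h replicate 2, and likewise without DEX 3 h replicate 1, 9 h replicate 1, 12 h replicate 2, or 24 h replicate 1 or 3. ATG8D at 0.997 and ATG8G at -0.53 passed the p threshold (limma adjusted p = 6.77e-06 and 3.9e-06) but not the fold minimum. With each array centred on its median, the median difference over all probe sets was higher by 0.58, 0.43, 0.55, 0.49, 0.22 and 0.43 at 3, 6, 9, 12, 24 and 30 h. With centring, ATG8G averaged -0.08, its difference at 3 h was -0.50 and not called, and APG8A (1.53) and ATG8D (1.498) were called up at 3 h.

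The signed difference between DEX and DMSO was higher at 30 h than at 3 h for ATG8G, by 1.18 ± 0.33 (SE, limma adjusted p = 0.0222). Of all probe sets 2.65% were called in that direction. The difference of ATG8G went from -1.08 at 3 h to 0.10 at 30 h, so its early fall was absent late. The call was lost with centring (1.03) and with quantile normalization (0.94), and without replicate 3 of DMSO 3 h, replicate 2 of DMSO 30 h, or replicate 2 or 3 of DEX 30 h, with values of 1.05 to 1.32 over all 12 arrays left out in turn. For 4 further members the later effect exceeded the earlier by 1.65 to 1.92, namely APG8A, ATG8B, ATG8E and APG8H, but none was called (lowest limma adjusted p = 0.0832 for APG8H). Without DEX 3 h replicate 1, ATG8B, ATG8C and APG8H were called, beside 3.29% of all probe sets called in that direction. Without the arrays out of place, which removes none of these 12 arrays and narrows the shared spread, 6 members were called, APG8A, ATG8B, ATG8E, ATG8F, ATG8G and APG8H, beside 9.21% of all probe sets in that direction.

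In the empty vector line none of the 10 genes was called. This held at 9, 12 and 24 h, where 0.0835%, 0.0879% and 0.123% of all probe sets were called in either direction, and no member had an unadjusted p under 0.05. Differences ran from -0.29 for ATG8G at 12 h to 0.25 for ATG8H at 24 h. ATG8H read 7.62, 8.08 and 7.71 on DEX against 7.81, 7.48 and 7.45 on DMSO at 9 h, and ATG3 read 9.22, 9.24 and 9.20 against 9.28, 9.38 and 9.34. Only for ATG3 at 9 h did the groups of a member not overlap, with DEX below, as in 5.82% of all probe sets.

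The difference between the lines in the effect of DEX was called at 9 h for ATG8H, 2.93 ± 1.05 (SE, limma adjusted p = 0.0317), and for ATG3, 1.42 ± 0.43 (limma adjusted p = 0.0107), where 9.84% of all probe sets were called in that direction. For ATG8H the call was lost without any 1 of 5 of the 12 arrays: empty vector DMSO replicate 1, empty vector DEX replicates 1 and 3, VND7 DMSO replicate 2 and VND7 DEX replicate 1, with values of 2.73 to 3.06 over the 12. ATG8D differed by 1.61 and was just short of a call (limma adjusted p = 0.0544). No member was called at 12 or 24 h, where 13.4% and 0.303% of all probe sets were called in either direction. Without the arrays out of place 1 member was called at 12 h, ATG8H at 1.66, and 9 at 24 h, all up, beside 8.74% and 11.6% of all probe sets. Those of 24 h ran from 1.20 for ATG8C to 3.53 for ATG8H, the exception again being ATG8G.

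Without DEX the lines differed little for most members. Averaged over 9, 12 and 24 h of DMSO, ATG8B was different by -0.997 ± 0.31 (SE) in the VND7 line against the empty vector line on the log2 scale, past the p threshold but just short of the fold minimum (limma adjusted p = 0.0195). At 9 h ATG8B read 8.79, 8.87 and 9.64 in the VND7 line and 10.51, 10.34 and 10.16 in the empty vector line, without overlap. Of all probe sets 2.03% were called lower in the VND7 line. Without the out-of-place DMSO 24 h replicate 1, ATG8B differed by -1.18 and ATG8E by -1.01, and both were called, beside 1.89% of all probe sets called lower. ATG8B was also called, at -1.01 to -1.09, without replicate 3 of the empty vector line at 9, 12 or 24 h, or without DMSO 9 h replicate 3 or DMSO 12 h replicate 2 or 3 of the VND7 line. Within the VND7 line no member was called between DMSO at 30 h and DMSO at 3 h, beside 0.0044% of all probe sets.

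**Figure D3:**
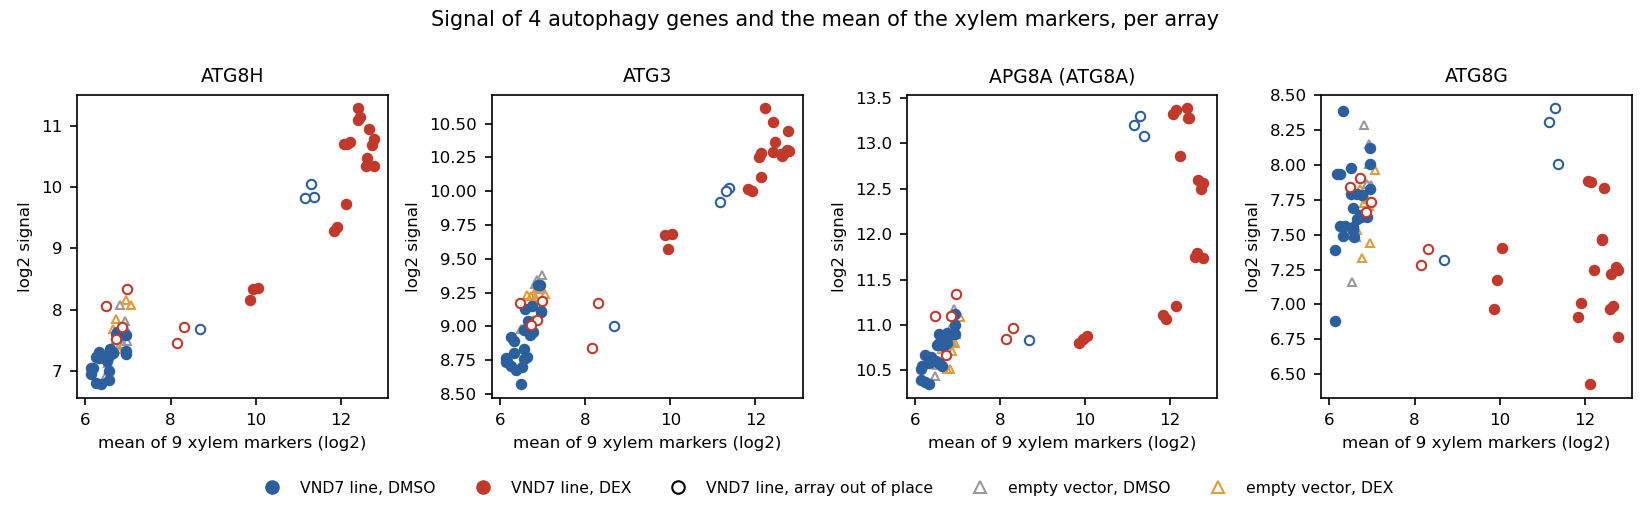
Log2 signal of ATG8H, ATG3, APG8A and ATG8G (y axes) against the mean log2 signal of 9 xylem markers (x axis) on each of the 69 arrays, with DMSO in blue, DEX in red, arrays out of place open and empty vector arrays as triangles. ATG8H and ATG3 are high where the markers are high, and ATG8G shows no such order. Among the DEX arrays in place APG8A spreads from 10.80 to 13.38 and ATG8H from 8.15 to 11.28.

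Xylem genes and the members rose together at some times and not at others. All 9 measured xylem and secondary wall markers were called up at 3, 9 and 30 h, with median differences of 4.96, 6.41 and 6.10. Of all probe sets 10.4%, 11.8% and 12.7% were called up at these times. The medians of the 10 members at these times were 0.24, 0.67 and 1.66. At 6 h 6 of the 9 markers were called up and 0 down, with a median of 4.21. At that time 0 members were called up and 2 down, with a median of -0.59, beside 9.85% and 12.7% of all probe sets. This contrast rests in part on the arrays out of place. Without them ATG3 (1.10) and ATG8H (2.29) were called up at 6 h and ATG8F (-1.12) down, and the median of the members was 0.005. At 12 h 8 markers were called up (median 3.75) beside 2 members (median 0.33), and at 24 h 2 markers (median 3.20) beside 0 members (median 0.65). Of all probe sets 8.94% and 2.89% were called up at 12 and 24 h. The 24 h values also rest on arrays out of place. Without them 9 members were called up at 24 h (median 1.71), beside 13.3% of all probe sets. Among the DEX arrays, DEX 3 h replicate 2 and DEX 12 h replicates 1 and 3, with the lower marker means of 9.94, 10.05 and 9.86, read 8.34, 8.36 and 8.15 for ATG8H and 10.85, 10.88 and 10.80 for APG8A. The DEX arrays of 6 h, with marker means of 11.8 to 12.1, read 9.28 to 9.73 for ATG8H but 11.07 to 11.21 for APG8A. In the 3 DMSO arrays with xylem marker means of 11.2 to 11.4, ATG8H and ATG3 were high too. The part of xylem marker level in the differences of the members was not tested.

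Markers of other tissues were few. The 3 measured of 5 chloroplast and light harvesting markers were called down at 3, 9 and 30 h, with median differences of -4.48, -6.19 and -7.07. The phloem gene OPS, 1 of 4 listed, fell by 1.03 at 3 h, to 2.50 ± 0.00 (SD, n = 3), near the floor of 2.14. Its difference at 30 h was -0.01. Of the 2 measured root hair genes of 4, EXPA7 rose by 1.53 and EXPA18 by 2.05 at 30 h, when most ATG8 genes were called. EXPA7 lay at the floor on 10 of the 27 DMSO arrays of the VND7 line. The part of these tissues in the results was not tested, and the label of hypocotyl was not checked, as no hypocotyl markers were listed.

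Few other autophagy genes could be read, 10 of 41 listed, and for most of these the reference gave a locus code without a name. Of the list for ATG8 and ATG12 conjugation 2 of 8 were measured, AT3G59950 and AT5G50230. Both were called up at 3 h, by 1.71 and 1.02, and at 30 h, by 2.50 and 1.02, beside 10.4% and 12.7% of all probe sets. At 30 h AT3G59950 went from 7.12 ± 0.29 to 9.62 ± 0.21 (SD, n = 3, limma adjusted p = 0.00041). It was also called at 9 h (1.97) and 12 h (1.46), while AT5G50230 stood at 0.99 at 9 h, past the p threshold but under the fold minimum. In the annotation used, none of the 10 listed genes of membrane supply (ATG9, ATG2 and ATG18) and none of the 7 receptors and ATG8 binders had a probe set of its own. That annotation left 8730 probe sets without a gene, so the array is not shown to lack these genes.

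Of the 8 genes listed for the ATG1-ATG13 kinase complex, which starts the formation of autophagosomes, 6 were measured, with 2 called up at 3 h, 2 at 9 h and 3 at 30 h and 0 down. At these times 10.4%, 11.8% and 12.7% of all probe sets were called up, and 17.4%, 17.7% and 15.2% down. AT3G61960 rose by 2.50 at 3 h, 3.05 at 9 h and 3.46 at 30 h, when it went from 7.21 ± 0.04 to 10.66 ± 0.35 (SD, n = 3, limma adjusted p = 0.00028). AT3G53930 rose by 1.12, 1.25 and 2.42 at the same times. ATG101 (AT5G66930), a subunit of the kinase complex, missed the threshold at 3 h (1.59, limma adjusted p = 0.0576) and 9 h (1.55, limma adjusted p = 0.0634) and rose by 3.36 ± 0.69 (SE) at 30 h, from 7.19 ± 0.41 to 10.55 ± 0.31 (limma adjusted p = 0.000305). AT1G49180 and AT3G18770 lay within 0.3 of the floor in both groups at 30 h. At 6 h none of the 6 was called, beside 9.85% of all probe sets called up and 12.7% down.

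For the lists of the phosphatidylinositol 3-kinase complex, nutrient signalling and sugar starvation the record was thinner still. The 1 measured gene of 4 of the phosphatidylinositol 3-kinase list, AT2G32760, was called up at 6 h, by 1.15 ± 0.23 (SE, limma adjusted p = 6.38e-05), and stood at 0.22 at 30 h. RAPTOR1 (AT3G08850), a partner of the TOR kinase that holds autophagy down when nutrients suffice, differed by -0.35 to 0.91 and was not called. AT3G15450, 1 measured of 7 on the list of sugar starvation genes, rose by 1.41 at 3 h, 1.15 at 9 h and 1.13 at 30 h. In the empty vector line the other autophagy genes and AT3G15450 differed by -0.22 to 0.21 at 9, 12 and 24 h, and 0 were called.

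**Figure D4:**
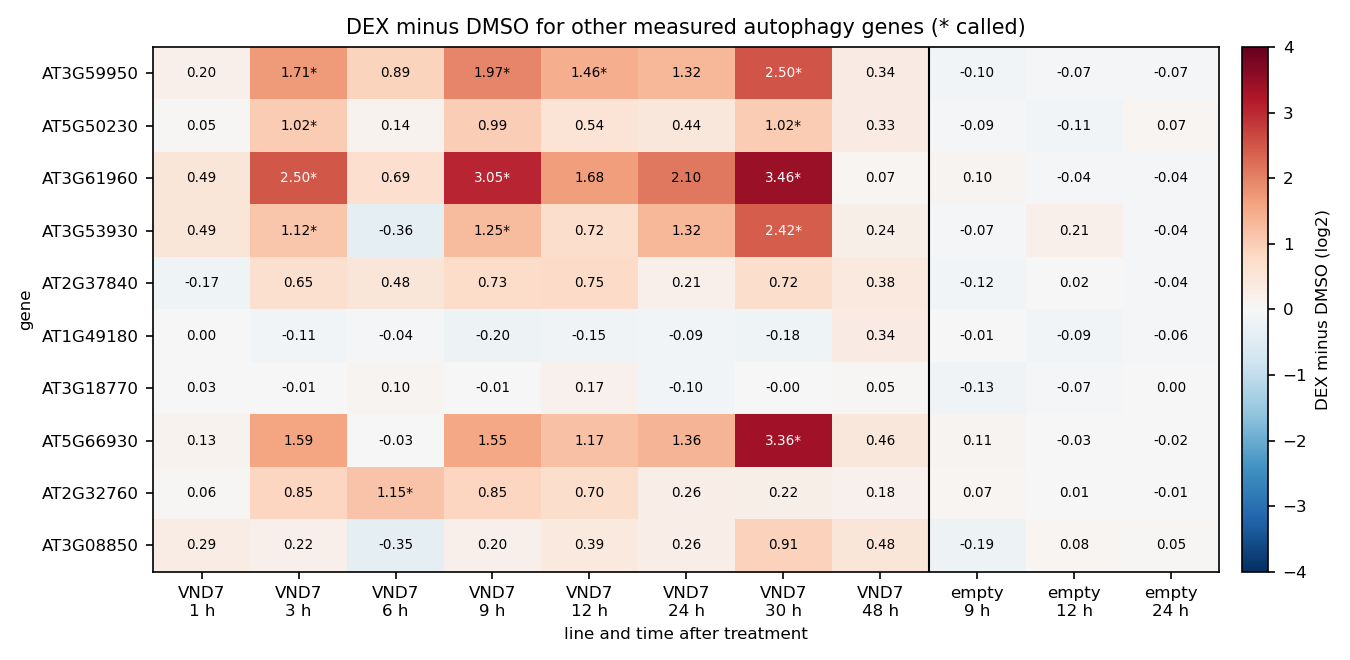
Difference between DEX and DMSO on the log2 scale for the 10 measured genes of the other autophagy lists (rows, by locus code) at each time and line (columns), coloured and marked as for the ATG8 and ATG3 genes. AT3G59950, AT3G61960, AT3G53930 and AT5G66930 are reddest at 30 h, with values of 2.42 to 3.46.

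The genes most like a member were found by Pearson's r over the 23 group means, among single-gene probe sets of other genes, as a description of groups that share arrays, lines and treatment. For ATG8H they were AT3G51130 (r = 0.994), AT3G09760 (0.987) and LigB (0.986). For ATG3 they included AT5G66390 (r = 0.978), the peroxidase gene PRX72 of the xylem marker list, with AT1G15130 (0.978) and AT2G31090 (0.977). APG8A was closest to AT4G34320 (r = 0.983), AT3G07450 (0.981) and ALPHA-VPE (0.976), which encodes a vacuolar processing enzyme. APG8H was closest to AT1G02305 (r = 0.970), AT5G24870 (0.958) and FIS1B (0.957).

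For the other members r over the 23 group means was 0.913 to 0.966. ATG8B was closest to AT1G22140 (r = 0.947), AT5G18640 (0.944) and the organic cation transporter gene OCT4 (0.937), and ATG8C to AT5G45360 (0.965), AT1G44770 (0.955) and AT1G23120 (0.947). ATG8D was closest to AT1G22930 (r = 0.962), AT1G17090 and AT1G27300 (both 0.955), and ATG8E to AT2G40110 (0.966), AT3G05990 (0.966) and AT1G35190 (0.960). ATG8F had AT5G10650 and AT1G33050 (both r = 0.936) and AT1G56700 (0.930), and ATG8G had AT1G06200 (0.928), AT5G14105 (0.920) and AT5G42850 (0.913).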

How the data were processed

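Log2 signals of probe sets on Affymetrix ATH1 arrays were deposited, which the authors made with GCRMA, per the submitters' processing notes, with its version and the genome build not given in the sources used here. No depth exists for arrays, and the 3 arrays of a group limit the precision. Signals ran from a floor of 2.14 to 15.3, and array medians from 4.89 to 5.60. No scaling was added. Of 22810 probe sets, 64 controls were left out and 22746 tested. A table of platform annotation gave 13513 probe sets 1 gene, 503 several and 8730 none, and 13436 of the 13513 matched the reference of gene names by locus. No sequences or coordinates are printed.

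limma 3.58.1 in R 4.3.3 fitted 1 mean per group to all 69 arrays, with moderated statistics whose prior depends on mean signal. A call needed a Benjamini-Hochberg adjusted p under 0.05 over all probe sets of a comparison and a difference of at least 1 on the log2 scale, in either direction. The spread is shared over the 69 arrays, so arrays out of place widen it. There were 19 comparisons, which share arrays. All 10 members are named, with all measured genes of the other autophagy lists and, for called members, the 3 most similar genes. The members, lists and alternatives were chosen with earlier results of these data known. Replicate numbers did not pair the arrays. The method was tested on simulated data, and the figures were drawn with matplotlib 3.10.9.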

Additional observations from a re-analysis of the deposited data

Results flagged for a closer look

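At 9 h the effect of DEX on ATG3 differed between the VND7 line and the empty vector line by 1.42 ± 0.43 on the log2 scale (SE, limma adjusted p = 0.0107), with every DEX array above every DMSO array in the VND7 line. For ATG8H the same difference was 2.93 ± 1.05 (limma adjusted p = 0.0317), with every DEX array above in the VND7 line. It was 1.66 at 12 h and 1.41 at 24 h, where it was not called.

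The effect of DEX on ATG8G differed between 30 h and 3 h by 1.18 ± 0.33 (SE, limma adjusted p = 0.0222), from -1.08 at 3 h, with all 3 DEX arrays below, to 0.10 at 30 h, with overlapping groups. Centring the arrays gave 1.03 and quantile normalization 0.94, neither of them called. No group was large enough for a test of single arrays as outliers.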

How the results depend on the processing

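Of 90 differences of single members, at 3 to 30 h in the VND7 line and at 9 to 24 h in the empty vector line, none reversed while called under the settings below. A fit with the replicate number as a block, a prior without a trend and a robust prior left all 90 on their side of the threshold, and the block kept every count of calls. Same-numbered arrays correlated at a mean r of -0.013 across groups, others at 0.0076, so the numbers pair nothing. Counts of called members that moved by over 1.5 times were as follows. Without a fold minimum 4 were called at 6 h, 7 in the mean of 3 to 30 h and 1 between the lines on DMSO. Centring gave 5 at 9 h, 4 and 1 in the difference of effects between lines at 9 and 12 h, 5 in the mean and 0 for 30 h minus 3 h. Quantile normalization gave 1 at 12 h, 1 in the mean, 0 for 30 h minus 3 h and 1 between the lines. Array weights, whose estimate did not fully converge, gave 5 at 3 h, 1 at 12 h (ATG8F down, with neither ATG3 nor ATG8H called), 9 at 24 h, 4, 1 (down) and 8 in the difference between lines at 9, 12 and 24 h, 4 for 30 h minus 3 h and 1 between the lines. Fitting the compared groups alone gave 1 at 6 h, 1 at 12 h, 4 between lines at 9 h and 2 for 30 h minus 3 h. Without the arrays out of place there were 9 at 24 h and 6 for 30 h minus 3 h, beside 13.3% and 9.21% of all probe sets called up. Between lines there were 4, 1 and 9 at 9, 12 and 24 h, where 8.74% and 11.6% were called up at 12 and 24 h. There were 2 between the lines on DMSO, with no value at 48 h. At 1 h that setting left 1 DEX array, so no count is given, and the median difference of the members was 1.51. Counts without a share of all probe sets beside them do not tell whether the members moved more than other probe sets, which was not tested. Leaving out each array in turn gave 2 to 4 at 3 h, 1 to 4 at 6 h, 3 to 3 at 9 h, 0 to 2 at 12 h, 0 to 7 at 24 h, 7 to 9 at 30 h, 1 to 4 in the mean, 1 to 2 between lines at 9 h, 0 to 4 for 30 h minus 3 h and 0 to 2 between the lines on DMSO, and 0 to 0 elsewhere. Beyond the fewer arrays or genes of some settings, the cause was not tested. Another probe set per gene was not run, because each member has 1.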
